A study of Mus musculus with 6 samples.

Results

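The 10 genes described here encode the protein 53BP1, the proteins that bring it to DNA breaks or act through it, and 3 components of classical end joining. They were chosen by name (Trp53bp1, Mad2l2, Paxip1, Fam35a, Rnf8, Rnf168, Mdc1, Xrcc5, Xrcc6 and Lig4) from 33924 gene symbols. The rule reads no measured value, but the genes were proposed with earlier results of these data known. All 10 passed the filter on low counts. RNA was sequenced from E14, a mouse embryonic stem cell line, in 3 libraries labelled Rif1-KO and 3 labelled control, and the series asks how depleting Rif1 changes gene expression. The labels give 2i medium (kinase inhibitors in it keep the cells naive) for both groups, and a treatment of 0.1 µM 4-hydroxytamoxifen (4-OHT) for 2 days followed by 1 day without it. The column headers carry TAM only in the Rif1-KO libraries and 2i only in the control libraries, so it is not settled whether the control cells received 4-OHT or whether the media differed. A difference in drug or medium cannot be told apart from the label Rif1-KO in these libraries. How Rif1 was disrupted, whether the cells were 1 clone and whether replicates were separate cultures is not stated in the labels. The p-values therefore reflect the spread among these 6 libraries alone, which may be technical.

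When both strands of DNA break, the kinase ATM phosphorylates the histone variant H2AX around the break, and MDC1 binds that mark. MDC1 brings in the ubiquitin ligase RNF8, RNF168 then ubiquitinates histone H2A, and 53BP1 binds nucleosomes that carry this ubiquitin together with methylated histone H4. Phosphorylated 53BP1 recruits RIF1 and PTIP, and RIF1 recruits shieldin, which shields the broken ends from resection. Ends held by the Ku heterodimer can be joined by DNA ligase IV, the classical end-joining route.

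Total counts ran from 9185062 to 10980777 in the Rif1-KO libraries and from 8383632 to 9218036 in the control libraries. Counts of a single member in a single library ran from 138 to 5268. CPM, counts scaled to a common library size, are given after TMM scaling, and a gene rose or fell where edgeR's quasi-likelihood test gave an adjusted p under 0.05 over 14250 tested genes. Rif1 itself was read at 602, 604 and 664 CPM in the Rif1-KO libraries, against 673, 657 and 700.1 CPM in the control libraries (log2 fold change −0.12 ± 0.05, adjusted p = 0.0509). Over 15 alternatives it ranged from −0.29 to −0.09 and passed in 8. The lowest, −0.29 ± 0.04 (adjusted p = 6.47e-06), came with a correction of each library for GC content and gene length. Because the count sums all exons, a deleted exon could go unseen, so this value does not check the label, and "Rif1-KO" stands for the label throughout. Of 6 pluripotency markers, Pou5f1 and Nanog among them, the summed level was 3219 to 3288 CPM in the Rif1-KO libraries and 3405 to 3444 CPM in the control libraries. Of these markers 2 rose, Sox2 fell and 3 did not pass. The 5 fibroblast markers summed to 8.75 to 9.49 CPM in the Rif1-KO libraries and to 11.9 to 19.6 CPM in the control libraries, and of the 2 tested Thy1 fell.

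Of the 10 genes, 7 fell in the Rif1-KO libraries, none rose and 3 did not pass by edgeR's test. At an unadjusted p under 0.05 Lig4 alone rose, and DESeq2 and limma-voom called none higher. In bulk RNA, fewer cells of a kind and less RNA per cell cannot be told apart. Over all tested genes 50.9% passed, of which the falls made up 24.8% and the rises 26.1% of those tested. Among the 8476 tested genes whose mean level was at or above that of the lowest member, 31.6% fell and 27.6% rose. The largest falls were those of Xrcc6 and Xrcc5, which encode the Ku subunits, and of Mdc1. The median log2 fold change of the 10 was −0.28, against 0.003 over all tested genes. The 7 genes fell by 12.4% to 30.7%, and the median size of the change regardless of direction, 0.28 on the log2 scale, lay close to the 0.25 of all tested genes. Each library of 1 group lay apart from each library of the other for 6 of the 10 genes (Mdc1, Rnf168, Trp53bp1, Mad2l2, Xrcc5 and Xrcc6), all with lower Rif1-KO values. The groups' libraries did not overlap for 57.2% of tested genes.

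**Figure D1:**
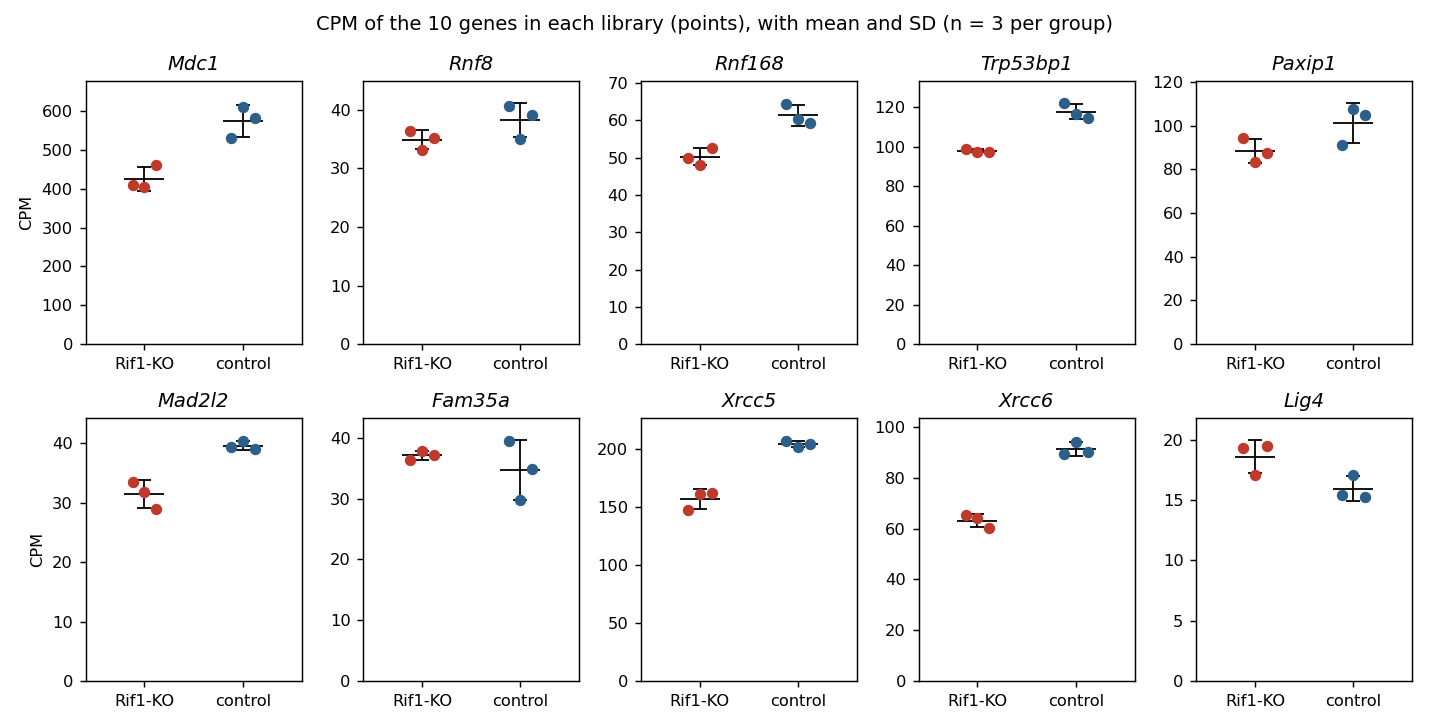
CPM of the 10 genes (vertical axes from 0, a scale for each gene) in the 3 Rif1-KO libraries (red, left) and the 3 control libraries (blue, right), with the mean and SD of each group. The red points lie below all blue points for Mdc1, Rnf168, Trp53bp1, Mad2l2, Xrcc5 and Xrcc6, and the groups overlap for Rnf8, Paxip1, Fam35a and Lig4.

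Start regions are shown for the 3 genes that fell also when tested against a fold minimum of 1.2 (Mdc1, Xrcc5 and Xrcc6) and for Lig4, the member with the highest fold change. RefSeq's table (GRCm38.p6) held 12 windows for the 10 genes, each with 250 bases before the annotated gene start and 50 from it on. Mad2l2 and Lig4 have a pair of windows each, and for Lig4 the upstream one is printed. Each is written 5′ to 3′ on the gene's strand, with matches in capitals to motifs bound by E2F (TTCCCGCC, TTTCGCGC, TTTGGCGC), NF-Y (CCAAT) and NRF1 (CGCATGCG) and to the cell cycle element CHR (TTTGAA), searched on both strands, so that ATTGG is CCAAT on the other strand.
Mdc1, chr17:35841248-35841547, + strand: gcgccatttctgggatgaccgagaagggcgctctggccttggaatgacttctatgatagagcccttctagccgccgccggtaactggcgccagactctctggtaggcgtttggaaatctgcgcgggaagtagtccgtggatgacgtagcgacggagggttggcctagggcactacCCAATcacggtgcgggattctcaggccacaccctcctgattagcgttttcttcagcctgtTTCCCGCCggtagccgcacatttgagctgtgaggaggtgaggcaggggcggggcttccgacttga
Xrcc5, chr1:72307171-72307470, + strand: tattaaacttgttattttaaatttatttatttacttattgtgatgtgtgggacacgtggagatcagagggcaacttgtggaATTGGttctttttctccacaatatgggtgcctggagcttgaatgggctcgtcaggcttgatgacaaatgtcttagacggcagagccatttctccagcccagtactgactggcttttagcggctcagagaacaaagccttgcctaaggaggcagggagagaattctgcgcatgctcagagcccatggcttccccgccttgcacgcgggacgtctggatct
Xrcc6, chr15:82016119-82016418, + strand: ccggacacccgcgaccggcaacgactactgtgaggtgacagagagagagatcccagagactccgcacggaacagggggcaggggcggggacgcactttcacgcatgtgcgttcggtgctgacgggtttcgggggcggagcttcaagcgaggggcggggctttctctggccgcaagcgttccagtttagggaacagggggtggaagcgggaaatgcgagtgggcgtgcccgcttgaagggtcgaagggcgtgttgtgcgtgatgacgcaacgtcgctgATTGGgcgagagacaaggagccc
Lig4, chr8:9977631-9977930, - strand: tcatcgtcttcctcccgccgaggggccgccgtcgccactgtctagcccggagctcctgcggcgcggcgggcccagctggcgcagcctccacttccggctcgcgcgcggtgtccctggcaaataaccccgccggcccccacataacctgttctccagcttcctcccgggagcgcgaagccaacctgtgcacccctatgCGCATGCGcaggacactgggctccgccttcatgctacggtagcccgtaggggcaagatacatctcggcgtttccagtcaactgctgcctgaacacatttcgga

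The E2F motif TTCCCGCC stood in the windows of Mdc1, Rnf168 and Rnf8, beginning 15, 37 and 24 bases before the gene start, and in 2.19% of all 32851 windows. Of these 3 genes, Mdc1 and Rnf168 fell and Rnf8 did not pass. The other E2F forms, TTTCGCGC (0.323% of all windows) and TTTGGCGC (0.514%), matched no member. CCAAT matched 5 of the members' 12 windows, from Mdc1, Rnf8, Mad2l2, Xrcc5 and Xrcc6, and 37.4% of all windows. In the Xrcc6 window printed above it begins 27 bases after the gene start, and in that of Xrcc5 169 bases before it. The NRF1 motif CGCATGCG matched 2 of the 12, from Paxip1 and Lig4, and 1.87% of all windows. TTTGAA matched 1 of the 12, that of Rnf8 beside its CCAAT, and 17.9% of all windows. The members' windows had a median GC content of 61.8% and 25 CpG pairs, against 52.7% and 7 over all windows. The motifs were settled on after the windows had been searched, and a match is a description of the letters.

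Mdc1, the scaffold that binds phosphorylated H2AX, had 411, 405 and 460.0 CPM in the Rif1-KO libraries, against 530, 611 and 583 CPM in the control libraries. The groups did not overlap, and the highest Rif1-KO library stood below the lowest control library. The means were 425 ± 30.3 CPM in the Rif1-KO libraries and 575 ± 41.4 CPM in the control libraries (SD, n = 3 each), and Mdc1 fell by 26.0% (log2 fold change −0.43 ± 0.06, adjusted p = 2.9e-06).

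Rnf8, the ubiquitin ligase that docks on MDC1, had 36.4, 33.1 and 35.1 CPM in the Rif1-KO libraries, against 40.7, 35.0 and 39.0 CPM in the control libraries. The groups overlapped, with control replicate 2 below 2 of the Rif1-KO libraries. Its log2 fold change of −0.13 ± 0.07 did not pass (adjusted p = 0.145), with a 95% interval from −0.29 to 0.02. In the GRCm38 annotation Rnf8 shares 30.7% of its 50-base stretches with the overlapping same-strand gene Gm28043, so its count is uncertain.

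Rnf168, the ligase that ubiquitinates histone H2A for 53BP1 to read, had 49.98, 48.1 and 52.6 CPM in the Rif1-KO libraries, against 64.4, 60.3 and 59.2 CPM in the control libraries. All Rif1-KO values lay below all control values. The log2 fold change was −0.29 ± 0.06 with an adjusted p of 0.000597. Within each library the ratio of Rnf8 to Rnf168 counts, which needs no scaling, was 0.729, 0.689 and 0.667 in the Rif1-KO libraries and 0.631, 0.581 and 0.660 in the control libraries. The ratio was higher in the Rif1-KO libraries without overlap, by 0.16 on the log2 scale, with an exact two-sided permutation p of 0.1, the smallest that 3 against 3 allows, and 0.15 adjusted over 3 such ratios.

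Trp53bp1, which encodes 53BP1, had 98.7, 97.5 and 97.4 CPM in the Rif1-KO libraries, against 122, 117 and 114 CPM in the control libraries. The Rif1-KO libraries lay close together and below every control library. The log2 fold change was −0.27 ± 0.05 with an adjusted p of 0.000128, a level that fell by 16.8%. Exons of Trp53bp1 overlap those of Tubgcp4 on the other strand over 2130 bases in the GRCm38 annotation, and without the strand setting of the counting, reads of the pair cannot be told apart there. Tubgcp4 averaged 40.2 CPM in the Rif1-KO libraries and 39.9 CPM in the control libraries (log2 fold change 0.01 ± 0.07, adjusted p = 0.947).

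Among the proteins that act through 53BP1, the shieldin subunit gene Mad2l2 fell while the shieldin subunit gene Fam35a did not pass. Mad2l2 encodes REV7, which is also a subunit of DNA polymerase zeta, and had 33.5, 31.8 and 28.9 CPM in the Rif1-KO libraries, against 39.4, 40.5 and 39.0 CPM in the control libraries. The groups did not overlap, and the log2 fold change was −0.33 ± 0.07 with an adjusted p of 0.000856.

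Fam35a, now named Shld2, encodes the shieldin subunit that binds single-stranded DNA. It had 36.3, 37.9 and 37.2 CPM in the Rif1-KO libraries, against 39.6, 29.8 and 34.8 CPM in the control libraries. The control libraries spanned the whole Rif1-KO range. Its log2 fold change was 0.09 ± 0.09 (adjusted p = 0.393), with a 95% interval from −0.09 to 0.27. Without control replicate 2, the lowest library, it was −0.004. The ratio of Mad2l2 to Fam35a counts was 0.923, 0.840 and 0.776 in the Rif1-KO libraries and 0.995, 1.36 and 1.12 in the control libraries. These ratios did not overlap and were lower in the Rif1-KO libraries by a log2 difference of −0.44 (exact two-sided permutation p = 0.1, 0.15 adjusted over 3 ratios).

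Paxip1 encodes PTIP, which binds phosphorylated 53BP1 and is also part of histone methyltransferase complexes. It had 94.2, 83.5 and 87.5 CPM in the Rif1-KO libraries, against 90.9, 107.5 and 105 CPM in the control libraries. The groups overlapped through Rif1-KO replicate 1 and control replicate 1. The log2 fold change of −0.19 ± 0.06 passed (adjusted p = 0.0164), but the call was lost when Rif1-KO replicate 2 (adjusted p = 0.0841), control replicate 2 (adjusted p = 0.0883) or control replicate 3 (adjusted p = 0.0879) was left out.

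**Figure D2:**
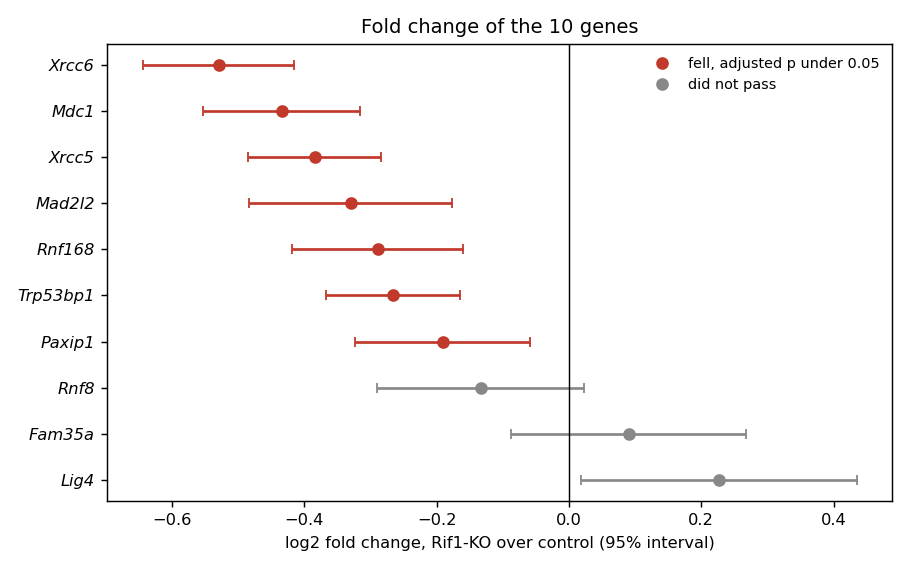
Log2 fold change (horizontal axis, Rif1-KO over control) of each of the 10 genes with its 95% interval from the test, red for genes that fell and grey for genes that did not pass. Values run from −0.53 for Xrcc6 to 0.23 for Lig4.

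The Ku genes fell the most among the end-joining members. Xrcc6, which encodes Ku70, had 65.3, 64.1 and 60.3 CPM in the Rif1-KO libraries, against 89.6, 94.4 and 90.4 CPM in the control libraries. The groups lay far apart relative to their SDs, with means of 63.2 ± 2.65 CPM in the Rif1-KO libraries and 91.5 ± 2.57 CPM in the control libraries (SD, n = 3 each). Xrcc6 fell by 30.7% (log2 fold change −0.53 ± 0.05, adjusted p = 1.27e-07). Its exons overlap 344 bases of Desi1 on the other strand. That gene, listed as Pppde2, averaged 33.5 CPM in the Rif1-KO libraries and 39.5 CPM in the control libraries and fell as well (log2 fold change −0.24 ± 0.08, adjusted p = 0.0121).

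Xrcc5, which encodes Ku80, the partner of Ku70, had 147, 161 and 162 CPM in the Rif1-KO libraries, against 207, 202 and 204 CPM in the control libraries. No library of one group reached the range of the other. Xrcc5 fell by 23.4% (log2 fold change −0.38 ± 0.05, adjusted p = 1.54e-06). The ratio of Xrcc5 to Xrcc6 counts was 2.25, 2.51 and 2.69 in the Rif1-KO libraries and 2.31, 2.14 and 2.26 in the control libraries. These ranges overlapped, and the log2 difference of 0.15 had an exact two-sided permutation p of 0.3 (0.3 adjusted over 3 ratios). With 3 libraries against 3 this test cannot give a p under 0.1. It therefore could not decide whether the Ku genes fell by different amounts.

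Lig4, which encodes the ligase that seals the joined ends, had 19.3, 17.1 and 19.5 CPM in the Rif1-KO libraries, against 15.5, 17.1 and 15.3 CPM in the control libraries. The groups overlapped only at the second replicates, at 17.07 CPM in the Rif1-KO library and 17.13 CPM in the control library. The log2 fold change of 0.23 ± 0.10 did not pass (unadjusted p = 0.035, adjusted p = 0.0654 by edgeR's quasi-likelihood test), with a 95% interval from 0.02 to 0.44. Lig4 rose in 2 alternatives, those that used library totals as the scaling (adjusted p = 0.0491) or left out Rif1-KO replicate 2 (adjusted p = 0.0423). With DESeq2 its adjusted p was 0.195, and a correction for GC content and length took its log2 fold change to 0.11. With 138 to 214 counts per library it was the member with the fewest reads.

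Per kb of exon, Xrcc5 and Mdc1 were the most abundant members in both groups and Lig4 the least. Xrcc5 averaged 61.3 CPM per kb in the Rif1-KO libraries and 79.99 CPM per kb in the control libraries, with overlapping ranges for Mdc1, which averaged 57.97 CPM per kb in the Rif1-KO libraries and 78.3 CPM per kb in the control libraries. Xrcc6 averaged 19.1 CPM per kb in the Rif1-KO libraries and 27.6 CPM per kb in the control libraries. The order then ran Mad2l2, Paxip1, Rnf168, Trp53bp1, Fam35a, Rnf8 and Lig4 in both groups, with Lig4 at 3.58 CPM per kb in the Rif1-KO libraries and 3.07 CPM per kb in the control libraries. Neighbours in this order overlapped only for Xrcc5 with Mdc1 in both groups, Xrcc6 with Mad2l2 in the Rif1-KO libraries and Fam35a with Rnf8 in the control libraries. Lengths are the exons of the GENCODE basic set on GRCm38, another build than the counts, so these levels are approximate.

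**Figure D3:**
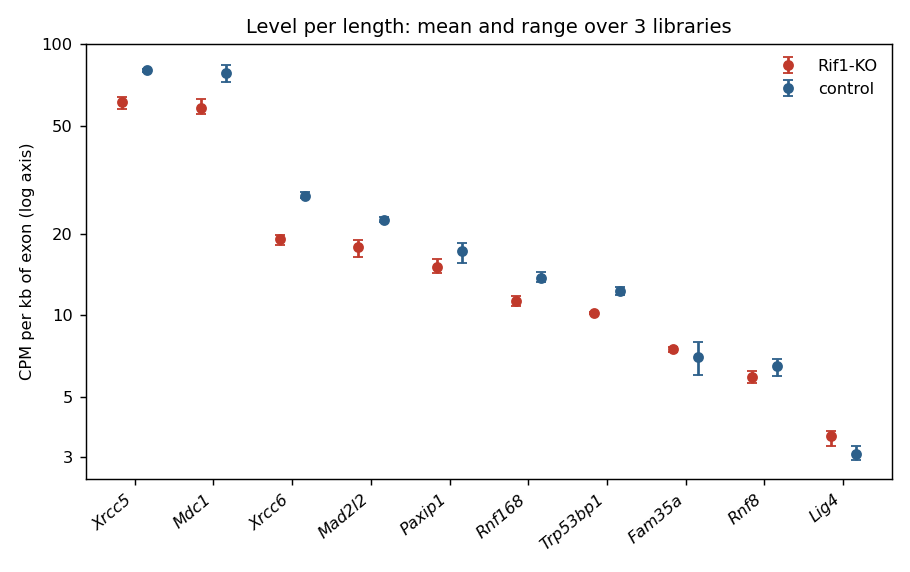
Level per length of the 10 genes (vertical log axis, CPM per kb of exon) in Rif1-KO (red) and control (blue) libraries, as mean and range over 3 libraries. The order of the genes is the same in both groups, from Xrcc5 to Lig4.

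The members also differed in base composition along with their fold change. Lig4 and Fam35a, the 2 members with a positive fold change, had the lowest transcript GC contents, 42.1% and 43.3%. Rnf168 and Xrcc5 came next with 44.3% and 45.6%, yet fell, with log2 fold changes of −0.29 and −0.38. Xrcc6 had 53.2% and Mad2l2 57.9%. Across the 10 genes Spearman's rho between GC content and log2 fold change was −0.67, against −0.15 across 13911 tested genes, a description over genes that share the same 6 libraries. With a per-library offset for GC content and length, the same 7 genes fell. Mad2l2 then had a log2 fold change of −0.22 and Xrcc6 of −0.48, while Rnf168 moved to −0.37 and Trp53bp1 to −0.35. For Lig4 and Fam35a the offset gave 0.11 and 0.02, against 0.23 and 0.09 without it, and neither passed.

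Lists of other genes of these routes, 4 in all, were read from the same test. Their counts are to be read beside all tested genes, of which 24.8% fell and 26.1% rose. Among the 8476 tested genes at or above the mean level of the lowest member, 31.6% fell and 27.6% rose. Some genes of the lists, Ten1 and Xrcc4 among them, lay below that level, so these shares are not matched to them. The list of signalling to 53BP1 held 17 tested genes, of which 7 fell, 2 rose and 8 did not pass, with a median log2 fold change of −0.07. H2afx, which encodes H2AX itself, stood far apart from the rest of this list at 85.6 ± 2.44 CPM in the Rif1-KO libraries and 356 ± 10.4 CPM in the control libraries (SD, n = 3 each; log2 fold change −2.06 ± 0.05, adjusted p = 2.68e-17). Setd8, which sets the first methyl group on histone H4 that 53BP1 binding builds on, fell by 19.0%, and Suv420h2, which adds further methyl groups, fell by 15.5%. Rad50, of the complex that senses breaks and activates ATM, fell by 18.7%, and Atm fell by 17.7%. The genes that rose, picked with their values known, were Herc2, a ligase that works with RNF8 (log2 fold change 0.19 ± 0.05, adjusted p = 0.0024), and Usp3, which removes ubiquitin from histones (0.18 ± 0.07, adjusted p = 0.0387). Usp3 passed in 6 of 15 alternatives and not with DESeq2 (adjusted p = 0.132).

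Among 13 tested genes of 53BP1 effectors and their regulators, 6 fell, none rose and 7 did not pass by edgeR's test (median log2 fold change −0.12). The list counts Rif1 itself, which is among those that did not pass and whose value is the median, and without it the 12 genes had a median of −0.17. None rose at an unadjusted p under 0.05, or with DESeq2 or limma-voom. Prim1 and Pola1, subunits of the primase and polymerase alpha that fill in resected ends together with shieldin and the CST complex, fell by 31.3% and 24.8%. They also serve ordinary DNA replication. Dynll1, a light chain that binds 53BP1, fell by 16.5%. Ten1 (listed as 2310004N24Rik), a subunit of the CST complex, fell by 34.2%. It averaged 7.66 ± 1.32 CPM in the Rif1-KO libraries and 11.5 ± 1.22 CPM in the control libraries (SD, n = 3 each). The other CST subunit genes were picked with their values known. Stn1 (listed as Obfc1) fell by 13.7% (adjusted p = 0.0208). Ctc1 (listed as 1500010J02Rik) had a log2 fold change of 0.01 ± 0.04 (adjusted p = 0.839). Pagr1a (listed as 2900092E17Rik), the partner of PTIP, fell by 28.8%, but shares 98.7% of its 50-base stretches with other genes, so its count is uncertain. The shieldin subunit gene Shld1 (listed as 1110034G24Rik), also picked with its values known, averaged 6.20 ± 0.281 CPM in the Rif1-KO libraries and 5.86 ± 1.73 CPM in the control libraries (adjusted p = 0.722).

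Most genes of classical end joining outside the members did not pass, and neither did Lig4. Of the 10 tested genes of this list, 2 fell, 1 rose and 7 did not pass, with a median log2 fold change of 0.02. Over all tested genes 50.9% passed. A gene that did not pass is not shown to be unchanged. Prkdc, the kinase that Ku recruits, averaged 145 ± 2.17 CPM in the Rif1-KO libraries and 160 ± 5.53 CPM in the control libraries (SD, n = 3 each) and fell by 8.92% (adjusted p = 0.0205). Aplf, which binds Ku, fell by 17.2% (adjusted p = 0.0451), and Dclre1c, the nuclease Artemis, rose (log2 fold change 0.19 ± 0.07, adjusted p = 0.0326). These calls were not stable over 15 alternatives, of which Prkdc passed in 11 and Aplf and Dclre1c in 7 each. With DESeq2 the adjusted p was 0.137 for Aplf and 0.119 for Dclre1c, and with the GC and length offset the log2 fold change of Dclre1c was 0.03. With 1 library left out, Prkdc did not pass without Rif1-KO replicate 2, control replicate 1 or control replicate 3. Aplf did not pass without Rif1-KO replicate 1 or 3 or control replicate 2 or 3, and Dclre1c without Rif1-KO replicate 2 or 3 or control replicate 1 or 3. Xrcc4, the partner of ligase IV, was picked with its values known and averaged 8.34 ± 1.04 CPM in the Rif1-KO libraries and 8.06 ± 0.339 CPM in the control libraries (adjusted p = 0.839). Dntt, the lymphoid polymerase that adds bases without a template, had no count in any library.

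Of 12 genes of end resection and alternative end joining, the routes that compete with classical joining, 7 fell, 1 rose and 4 did not pass (median log2 fold change −0.20). Xrcc1, the scaffold of DNA ligase III, averaged 170 ± 9.75 CPM in the Rif1-KO libraries and 226 ± 5.87 CPM in the control libraries (SD, n = 3 each) and fell by 24.9%. The resection nucleases Dna2 and Exo1 fell by 22.1% and 19.5%, Brca1, which opposes 53BP1 at breaks, fell by 18.9%, and Parp1, a sensor of breaks used in alternative joining, fell by 12.3%. Rbbp8, which encodes the resection factor CtIP, was picked with its values known and rose (log2 fold change 0.23 ± 0.07, adjusted p = 0.0092), but with the GC and length offset its log2 fold change was 0.11 (adjusted p = 0.188).

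**Figure D4:**
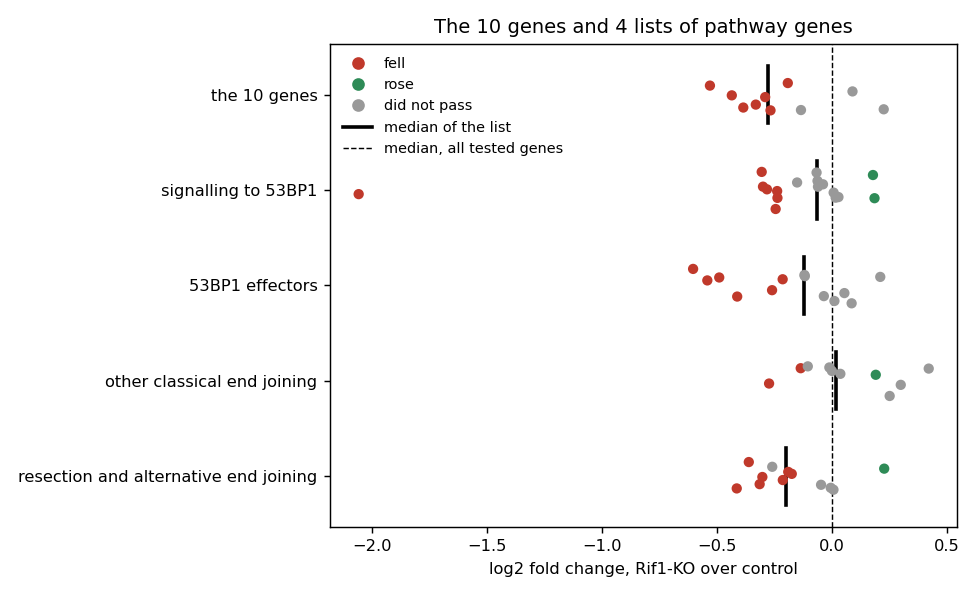
Log2 fold change (horizontal axis, Rif1-KO over control) of the 10 genes and of the tested genes of 4 pathway lists, each point a gene, with the median of each list as a black bar and that of all tested genes as a dashed line. H2afx, at −2.06, lies apart from the rest, and the medians run from −0.28 for the 10 genes to 0.02 for other classical end joining.

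Markers of cell division mostly fell, as most of the members did, while tested markers of primitive endoderm and trophectoderm mostly rose. Over all tested genes 24.8% fell and 26.1% rose. Of 6 S phase genes, 5 fell and 1 did not pass, and their summed level was 825 to 833 CPM in the Rif1-KO libraries and 1152 to 1171 CPM in the control libraries. Of 6 mitosis genes, 4 fell, 1 rose (Cdc20, by 22.6%) and 1 did not pass (Mki67). Their sums were 1533 to 1602 CPM in the Rif1-KO libraries and 1995 to 2056 CPM in the control libraries. Top2a weighed most in these sums, with means of 759 CPM in the Rif1-KO libraries and 1147 CPM in the control libraries. All 5 primitive endoderm markers rose, with sums of 29.8 to 32.5 CPM in the Rif1-KO libraries and 14.9 to 16.3 CPM in the control libraries. Some had few counts, such as Sox17 with 12 to 18 per Rif1-KO library and 4 to 5 per control library. Dab2 differed most in CPM, with means of 13.1 CPM in the Rif1-KO libraries and 3.87 CPM in the control libraries. Of 5 trophectoderm markers, 2 rose (Krt8 and Krt18), 1 did not pass and 2 were not tested, with sums of 147 to 162 CPM in the Rif1-KO libraries and 56.6 to 57.5 CPM in the control libraries, and the defining marker Cdx2 had no count in any library. The part of these shifts in the fall of the 7 members was not tested.

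Against a fold minimum of 1.2, only Xrcc6, Mdc1 and Xrcc5 of the 10 genes passed. Over all 14250 tested genes, 1326 fell and 1922 rose against the same minimum. The other 4 members that fell did so by an amount not shown to exceed that minimum. Over 15 alternatives, Xrcc6 ranged from −0.56 to −0.48, Mdc1 from −0.498 to −0.39 and Xrcc5 from −0.42 to −0.34 on the log2 scale, and each passed in all 15. Trp53bp1, Mad2l2 and Rnf168 passed in 14, all but the fold minimum, and Paxip1 in 11.

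**Figure D5:**
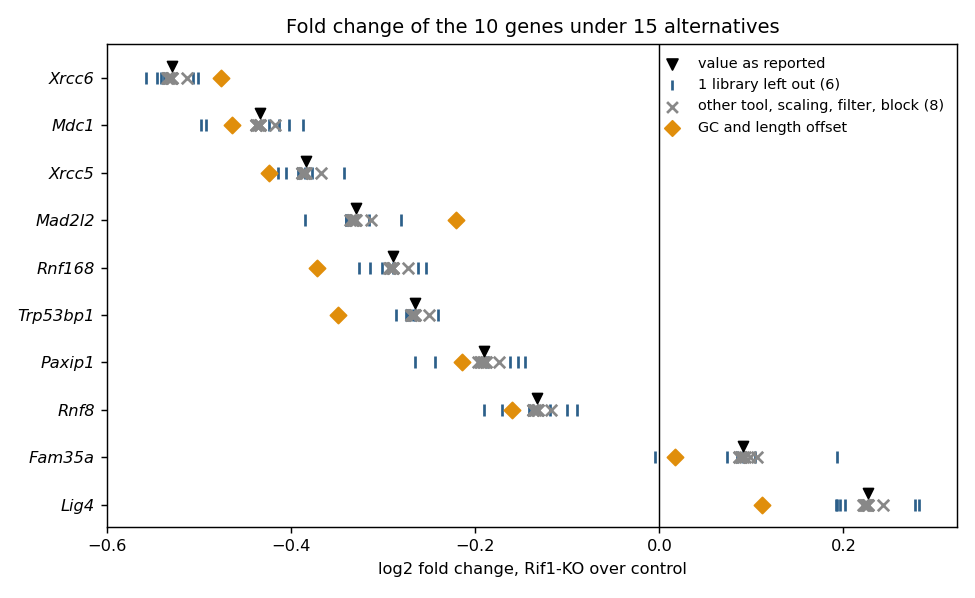
Log2 fold change (horizontal axis, Rif1-KO over control) of each of the 10 genes as reported (black triangle), with 1 library left out (bars), with the GC and length offset (diamond) and under the other 8 alternatives (crosses). The values of Xrcc6, Mdc1 and Xrcc5 stay below −0.34, and those of Fam35a cross 0.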

How the data were processed

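RNA was measured by sequencing in 3 libraries labelled Rif1-KO and 3 labelled control, made from 200 ng of total RNA each, per the labels' protocols. What the authors deposited are unnormalized read counts for each gene symbol, in a separate table for every library. The submitters' processing notes name STAR, featureCounts 1.6.2 and the mouse build mm9. The annotation, strand setting and treatment of reads with several matches are not given there or in the labels.

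The main test was the quasi-likelihood test of edgeR 4.0.16 (R 4.3.3) on all 6 libraries, with only the group in the model, after filterByExpr and TMM scaling. P-values were adjusted by Benjamini-Hochberg over 14250 genes, and an adjusted p with no tool beside it is from this test. The ± of a log2 fold change is its standard error, that of a CPM the SD. Alternatives were other scalings, no filter, DESeq2 1.42.0, limma-voom (limma 3.58.1), a replicate block, an offset for GC content and length fitted with mgcv, a fold minimum of 1.2 (glmTreat) and leaving out each library. Lists were matched by symbol or RefSeq synonym; Shld3 and Paxx were not analysed here. The rule for the 10 genes is a list of names and uses no measured value, but these genes, the other lists and the tests were proposed with earlier results of these data known. Besides the members and Rif1, the text names up to 5 genes per list that passed, in order of p, and others as said. Within each group all pairs of libraries differed beyond sampling noise (chi-square per degree of freedom from 1.28 to 4.47). Gene lengths, GC content, overlaps and shared stretches come from GENCODE M21 (GRCm38) and start regions from RefSeq (GRCm38.p6). Of the 12 windows, 10 matched the sense strand of a transcript and the other 2 matched none.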

Additional observations from a re-analysis of the deposited data

How the results depend on the processing

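Of the 10 genes, 7 fell under every change of scaling, filter or tool, 3 with the fold minimum of 1.2, and 6 to 7 with 1 library left out. None rose, except Lig4 with library totals (1 gene) and without Rif1-KO replicate 2 (range 0 to 1). The fold change of Fam35a reversed to −0.00449 without control replicate 2 (range −0.00449 to 0.193 with 1 library left out), and the cause was not tested. Genes named as not passing also reversed. With the offset Xrcc4 was at −0.048 and Tubgcp4 at −0.041. With 1 library left out the range was −0.057 to 0.126 for Xrcc4, −0.047 to 0.041 for Tubgcp4 (with −0.024 without control replicate 2), −0.0038 to 0.025 for Ctc1 (1500010J02Rik) and −0.144 to 0.248 for Shld1 (1110034G24Rik). The fold minimum left 1922 genes that rose and 1326 that fell of all tested. For signalling to 53BP1 it left 0 that rose and 1 that fell, for other classical end joining 0 and 0, and for resection and alternative end joining 0 and 1. The genes of signalling that rose numbered 1 without a filter, with DESeq2 or with the GC and length offset, and 1 to 2 with a library left out. In other classical end joining, 0 rose and 1 fell without a filter or with DESeq2, 1 fell with library totals, and with a library left out 0 to 3 rose and 0 to 1 fell. In resection and alternative end joining, 0 rose with the offset. Under the offset all tested genes had a median of −0.006, against 0.003 without it.

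The replicate numbers are shared between groups, and the labels do not say whether they pair libraries. Correlations of the deviations of same-numbered libraries were 0.117, −0.081 and 0.064. So few values cannot decide whether same-numbered libraries shared a culture or a preparation. With the replicate block, 7 of the 10 genes fell and 0 rose. Over all tested genes 3779 rose and 3607 fell with it, against 3722 and 3529 without it. Not every library correlated best with its own number. With a library left out, the log2 differences of the count ratios ran from 0.088 to 0.217 for Xrcc5 to Xrcc6, from −0.548 to −0.322 for Mad2l2 to Fam35a and from 0.106 to 0.199 for Rnf8 to Rnf168. Depth limits Lig4 and the genes under 10 CPM most.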
